A study of Mus musculus with 4 samples.

Results

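The Hox genes code for homeodomain transcription factors that lie in the mouse genome as clusters named Hoxa, Hoxb, Hoxc and Hoxd, each numbered by paralog group from 1 at one end to 13 at the other. The genes described here were the rows of the deposited expression table whose symbol was Hox followed by a cluster letter and a paralog number, which gave 28 genes of the 16051 genes in the table. The mouse has 39 such genes, and the other 11 were not analysed here. The 28 genes comprised 9 of the Hoxa cluster on chromosome 6, 8 of the Hoxb cluster on chromosome 11, 5 of the Hoxc cluster on chromosome 15 and 6 of the Hoxd cluster on chromosome 2.

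During development the Hox genes are switched on in the order of their position along the cluster, with low paralog numbers reaching into the hindbrain and neck and high numbers restricted to the lower trunk, limbs and tail. Cultured fibroblasts and fat precursors from different body sites keep different sets of active Hox genes, and this is often read as a memory of where the cells came from. Hox proteins bind DNA together with PBX and MEIS partners, retinoic acid activates genes of low paralog number, and Polycomb and trithorax proteins hold silent and active genes in their states.

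The study asked how risperidone, an antipsychotic drug associated with weight gain, changes gene expression in 3T3-L1 cells, a mouse embryonic fibroblast line of NIH Swiss origin that can be induced to form fat cells in culture. Differentiated cells were exposed for 48 h to 100 μM risperidone (RIS1 and RIS2) or to the control condition (RNC1 and RNC2), which the sample labels call untreated and the study's methods call DMSO. Each of the 4 libraries was made from RNA pooled from 3 cultures of this single line, so the p-values below measure the spread between pooled libraries and not between single cultures. The labels also give embryonic tissue and a retinal extraction, and the summed level of the 8 retina markers in the table was between 3.44 and 4.34 CPM, counts scaled to library size, in every library.

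The libraries held between 15883712 and 16374119 estimated counts, at which a count of 0 allows up to 3 counts or 0.183 to 0.189 CPM, counting error only. Of the markers of fat cells, Lpl, the lipoprotein lipase gene, was at 242 ± 11.5 FPKM, a count scaled to transcript length and library depth, in RNC and 192 ± 0.771 in RIS (mean ± SD, n = 2 libraries), whereas Adipoq, Cebpa, Cidec, Cfd, Retn, Lep and Slc2a4 had between 0 and 5 counts in each library. The fibroblast collagen gene Col1a2 was at 1010 ± 26.4 FPKM in RNC. Other fat cell genes were expressed in RNC, with Fabp4 at 149 ± 27.3 FPKM, Pnpla2 at 56.6 ± 2.43, Plin4 at 44.5 ± 0.0354, Pparg at 11.96 ± 0.778 and Lipe at 7.55 ± 0.46. The markers of libraries labelled adipocytes were thus mixed, with some lipid genes expressed. The lipid droplet gene Cidec, Cebpa, Slc2a4 and the hormone genes Adipoq, Lep, Retn and Cfd were at or near 0. Of 8 fat cell markers tested with edgeR, 2 were higher in RIS and 4 lower, beside 32.1% and 32.2% of all genes (64.3% in either direction), such as Fabp4 at a log2 fold change of -1.09 and Scd1 at 0.73. Of 11 fibroblast and precursor markers, 4 were higher and 3 lower, such as Dlk1 at 1.52 and Col3a1 at -0.96, a share close to that of all genes. With limma on TPM, FPKM rescaled to a fixed sum per library, 1 fat cell marker was higher and 4 lower, and 4 fibroblast markers were higher and 6 lower (all genes: 15.0% and 51.7%). The part of these markers in the Hox changes below was not tested. In RIS2, 26 of 30 kidney markers stood at least 2 times above the highest other library, and its values are given below beside the lowest Hox counts.

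Among the genes that passed the test between treatments, described below, RefSeq gives a promoter on GRCm38.p6 for 5: Hoxa2, Hoxa5 and Hoxd4, which were lower in RIS, and Hoxb4 and Hoxd8, which were higher. The 250 bases upstream of each start are printed 5′ to 3′ on the gene's own strand to show how unlike each other they are. Capitals mark TAAT or its reverse complement ATTA, the core that homeodomain proteins bind. The windows are chr6:52164832-52165081 on the minus strand for Hoxa2, chr6:52204588-52204837 on the minus strand for Hoxa5, chr2:74721728-74721977 on the plus strand for Hoxd4, chr11:96318017-96318266 on the plus strand for Hoxb4 and chr2:74704365-74704614 on the plus strand for Hoxd8.
Hoxa2: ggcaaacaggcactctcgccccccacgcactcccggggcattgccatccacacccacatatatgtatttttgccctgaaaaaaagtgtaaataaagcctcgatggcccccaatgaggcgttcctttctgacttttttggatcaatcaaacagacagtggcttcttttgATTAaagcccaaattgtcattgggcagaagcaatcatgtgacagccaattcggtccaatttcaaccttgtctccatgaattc
Hoxa5: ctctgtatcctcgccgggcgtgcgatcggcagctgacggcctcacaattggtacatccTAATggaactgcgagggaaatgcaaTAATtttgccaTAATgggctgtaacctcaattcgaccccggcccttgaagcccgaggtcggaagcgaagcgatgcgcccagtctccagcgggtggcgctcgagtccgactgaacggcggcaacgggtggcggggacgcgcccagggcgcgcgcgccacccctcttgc
Hoxd4: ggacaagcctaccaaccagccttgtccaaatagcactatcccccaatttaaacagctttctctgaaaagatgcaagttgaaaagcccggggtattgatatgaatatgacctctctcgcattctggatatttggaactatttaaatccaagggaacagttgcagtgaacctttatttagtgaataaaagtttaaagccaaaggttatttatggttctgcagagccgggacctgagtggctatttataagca
Hoxb4: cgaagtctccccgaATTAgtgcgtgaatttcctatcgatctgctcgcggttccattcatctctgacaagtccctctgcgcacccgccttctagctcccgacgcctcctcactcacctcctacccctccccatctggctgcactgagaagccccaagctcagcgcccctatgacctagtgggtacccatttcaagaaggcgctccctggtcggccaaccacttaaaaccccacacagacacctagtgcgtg
Hoxd8: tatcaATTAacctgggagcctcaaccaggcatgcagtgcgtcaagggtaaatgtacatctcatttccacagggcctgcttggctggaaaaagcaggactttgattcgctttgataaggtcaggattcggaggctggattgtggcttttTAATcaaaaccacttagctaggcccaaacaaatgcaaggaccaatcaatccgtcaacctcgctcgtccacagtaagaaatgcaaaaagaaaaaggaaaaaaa

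The core TAAT, counted on both strands, was present in 4 of these 5 windows and in 54.9% of all 32851 RefSeq promoters of this length. It occurred 3 times upstream of Hoxa5, 2 times upstream of Hoxd8, 1 time each upstream of Hoxa2 and Hoxb4, and had no match upstream of Hoxd4. The PBX and HOX composite TGATNNAT matched 1 window, that of Hoxa2, against 7.68% of all promoters. AGGTCA, the DNA element of nuclear receptors such as those for retinoic acid, matched Hoxd4, Hoxb4 and Hoxd8, or 3 of 5 windows against 14% of all promoters. It thus stood in promoters of genes that were lower and of genes that were higher. It also lay upstream of Hoxd3, Hoxc4 and Hoxd10, whose levels were too low for the main test. CCAAT matched 4 of 5 windows against 33.8% of all promoters, with 4 matches upstream of Hoxa2. CG dinucleotides ranged from 3 upstream of Hoxd4 to 28 upstream of Hoxa5, around a median of 6 over all promoters. Of the 9 genes expressed in RNC that had a RefSeq promoter, TAAT matched 7, AGGTCA 4 and CCAAT 5. These matches describe letters in the window and no more.

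In the control libraries 13 of the 28 genes were expressed, taken as at least 1 FPKM in both RNC1 and RNC2. They included Hoxa2, Hoxa3, Hoxa4, Hoxa5 and Hoxa7 (of 6 among 9 Hoxa genes in the table), Hoxb2, Hoxb3 and Hoxb4 (3 of 8), and Hoxd3, Hoxd4, Hoxd8 and Hoxd9 (4 of 6), with 0 of 5 Hoxc genes. Of the genes in the table, 6 of 7 in paralog groups 1 to 3 were expressed, 6 of 14 in groups 4 to 8 and 1 of 7 in groups 9 to 13. The mouse has 8, 15 and 16 genes in these groups, and those not in the table were not analysed. The one expressed gene of the posterior groups was Hoxd9. Paralog groups 2 and 3 were complete, with 2 of 2 and 3 of 3 genes expressed, and group 6 had 0 of 3.

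**Figure D1:**
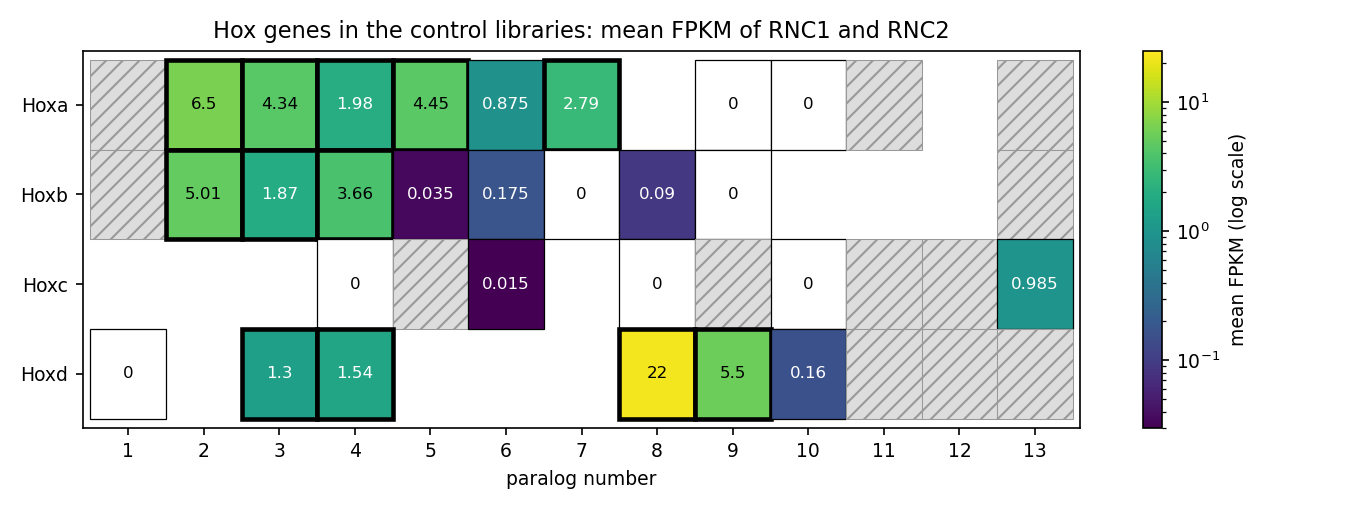
Mean FPKM of RNC1 and RNC2 for the Hox genes reported, with clusters in rows, paralog numbers in columns and colour on a log scale. Thick outlines mark genes with at least 1 FPKM in both control libraries, white outlined cells hold 0, hatched cells are mouse genes not shown here and blank positions hold no mouse gene. Outlined genes lie at paralog numbers 2 to 5 and 7 of Hoxa, 2 to 4 of Hoxb, and 3, 4, 8 and 9 of Hoxd.

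Levels per transcript length were dominated by Hoxd8, at 22.0 ± 0.417 FPKM (SD, n = 2). Hoxa2 followed at 6.50 ± 0.297 and Hoxd9 at 5.50 ± 0.0849, and these were the 3 genes at 5 FPKM or more in both control libraries. Hoxb2 at 5.01 ± 0.693 FPKM, Hoxa5 at 4.45 ± 0.163 and Hoxa3 at 4.34 ± 0.474 could not be set in order beyond the spread between their libraries. Hoxb4 stood at 3.66 ± 0.0141 FPKM and Hoxa7 at 2.79 ± 0.276. The others, with Hoxa4, Hoxb3, Hoxd4 and Hoxd3 among them, had means between 1.31 and 1.98 FPKM. The control libraries of the last of these, Hoxd3, held 1.06 and 1.55 FPKM, just inside the limit. Just outside it lay Hoxc13 at 0.74 and 1.23 FPKM and Hoxa6 at 1.30 and 0.45 FPKM, the latter on 12 and 4 counts. A limit of 0.5 FPKM or of 1 TPM changed the number by less than 1.5 times, and a limit of 5 FPKM left 3.

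Summed over the genes of a cluster in the table, Hoxd reached 29.97 and 31.1 FPKM in RNC1 and RNC2, Hoxa 22.2 and 22.7, Hoxb 10.3 and 11.4 and Hoxc 0.75 and 1.25. In RIS1 and RIS2 the Hoxa sum was 15.6 and 14.8 FPKM, below both controls, and its share of all Hox FPKM went from 35.1% and 34.1% in RNC to 26.7% and 25.7% in RIS. The Hoxb sum was 12.6 and 11.7 FPKM in RIS and the Hoxd sum 29.0 and 29.2 FPKM. All 28 genes together held 63.2 and 66.5 FPKM in RNC and 58.6 and 57.6 in RIS. These sums were not tested.

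Between RIS and RNC, Hox genes moved in both directions, and neighbours in one cluster moved apart. Of the 28 genes, 13 averaged 1 FPKM or more across the libraries and were tested: 12 of the expressed genes and Hoxc13. Of the others, Hoxd3 was expressed in RNC but averaged less, and 14 were under both limits. In the quasi-likelihood test of edgeR, with p-values adjusted after Benjamini and Hochberg over all 10243 genes tested and a threshold of 0.05, 7 of the 13, or 53.8%, differed, against 64.3% of all genes. Hoxa2, Hoxa5 and Hoxd4 (3 genes) were lower in RIS, where 32.2% of all genes were, and Hoxa4, Hoxb4, Hoxc13 and Hoxd8 (4 genes) were higher, where 32.1% of all genes were. The median log2 fold change of the 13 was -0.23, beside 0.0004 over all genes tested. The share of Hox genes that changed was thus no higher than that of the transcriptome. In such bulk libraries, fewer cells that express a gene and less of its RNA per cell cannot be told apart. With DESeq2, 0 of the 13 were higher and 3 lower, beside 2639 and 2653 of all genes. With limma on log2(TPM + 1), 1 of the 13 was higher and 7 were lower, against 15.0% and 51.7% of all genes (66.7% in either direction), and the median of all genes was then -0.224.

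**Figure D2:**
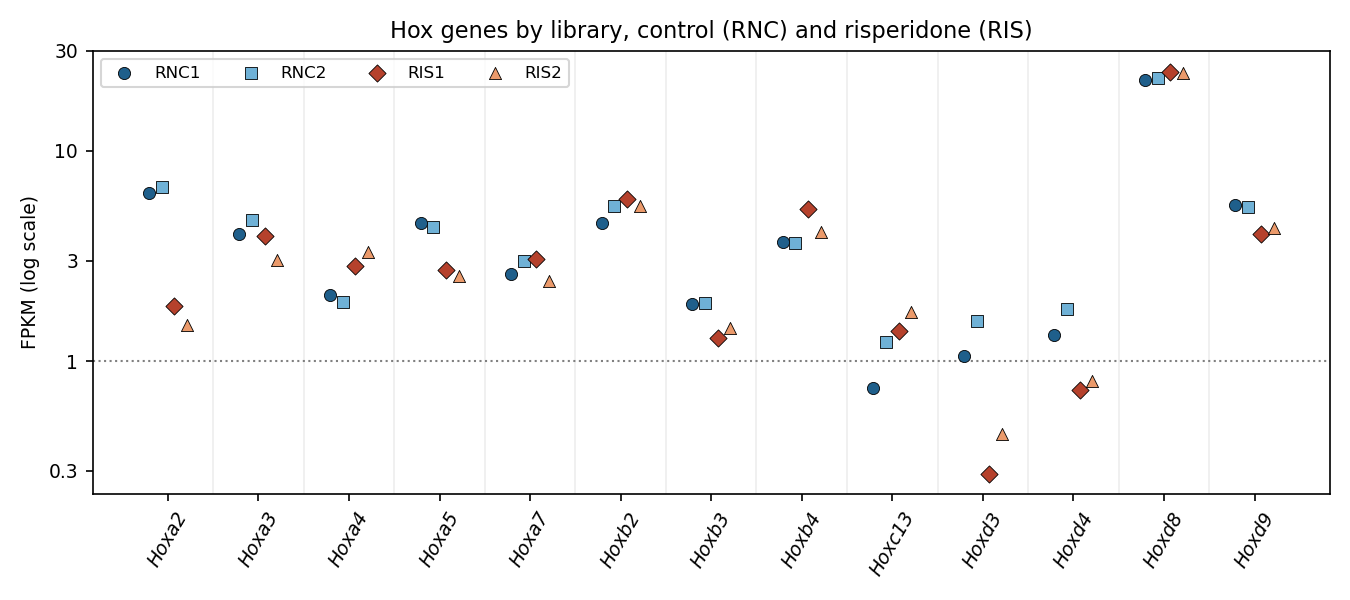
FPKM of expressed Hox genes and Hoxc13 in each library, on a log axis with a dotted line at 1 FPKM. Each point is 1 library of 3 pooled cultures. Both RIS points of Hoxa2 lie at 1.83 or below while both RNC points lie at 6.29 or above, and the 4 points of Hoxd8 lie between 21.74 and 23.80.

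Among the Hox genes tested, which did not include Hoxd3, Hoxa2 changed most. It patterns the hindbrain and the second pharyngeal arch. It had 169 and 175 counts in RNC1 and RNC2 (6.29 and 6.71 FPKM) and 49 and 39 in RIS1 and RIS2 (1.83 and 1.48 FPKM). Both risperidone libraries were far below both controls, at a log2 fold change of -1.87 (SE, the standard error, 0.178, edgeR adjusted p = 5.53e-06), or 3.66 times higher in RNC. Over the 14 alternatives its log2 fold change lay between -2.04 and -1.5 and each kept the call. It was the only Hox gene tested that passed the test with a change of at least 1 on the log2 scale. Its gene lies at chr6:52162417-52164831 on GRCm38.p6, the build the submitters' notes name, and 15.0% of its exon bases lie also in the gene Gm28308 on the same strand.

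Hoxa5, known for its part in the lung and the axial skeleton and commonly expressed in fat depots, was also lower. Its counts were 130 and 120 in RNC and 77 and 71 in RIS (4.56 and 4.33 against 2.71 and 2.54 FPKM). The groups did not overlap, with a log2 fold change of -0.66 (SE 0.164, edgeR adjusted p = 0.00455), and its call held in each of the 14 alternatives, at -0.78 to -0.59. Hoxa2 and Hoxa5 were the only tested Hox genes of which this was true.

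Hoxa4, which lies between them at chr6:52189682-52191703 and acts in the neck region of the axis, moved the other way. It had 47 and 42 counts in RNC and 64 and 74 in RIS (2.06 and 1.90 against 2.82 and 3.30 FPKM). Both RIS libraries were above both RNC libraries, at a log2 fold change of 0.73 (SE 0.212, edgeR adjusted p = 0.0112). The call was lost without RNC2 (0.67, adjusted p = 0.0724) and with DESeq2 (adjusted p = 0.0692). Of its exon bases, 16% lie opposite the antisense gene Gm29430. Whether the libraries kept strand is not given in the sources used here, so reads of the gene and of its antisense partner cannot be told apart, and 8 of the 13 expressed genes have an exon overlap of this kind in GENCODE M21.

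Hoxa3 and Hoxa7 did not pass the test. Hoxa3, needed for the thymus and parathyroids, had 198 and 225 counts in RNC and 190 and 148 in RIS. Its groups overlapped after TMM scaling (trimmed mean of M values), at -0.23 (adjusted p = 0.198), and the value turned on single libraries. It was -0.42 without RIS1 (adjusted p = 0.0247), -0.07 without RIS2 (adjusted p = 0.699) and -0.12 without RNC2 (adjusted p = 0.661), and it passed with TPM at -0.42 (adjusted p = 0.0185). Hoxa7, a gene of the thoracic region, had 77 and 86 counts in RNC and 91 and 70 in RIS. Its groups overlapped, with a log2 fold change of 0.07 (adjusted p = 0.753) and a sign that was negative without RNC1 or without RIS1.

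**Figure D3:**
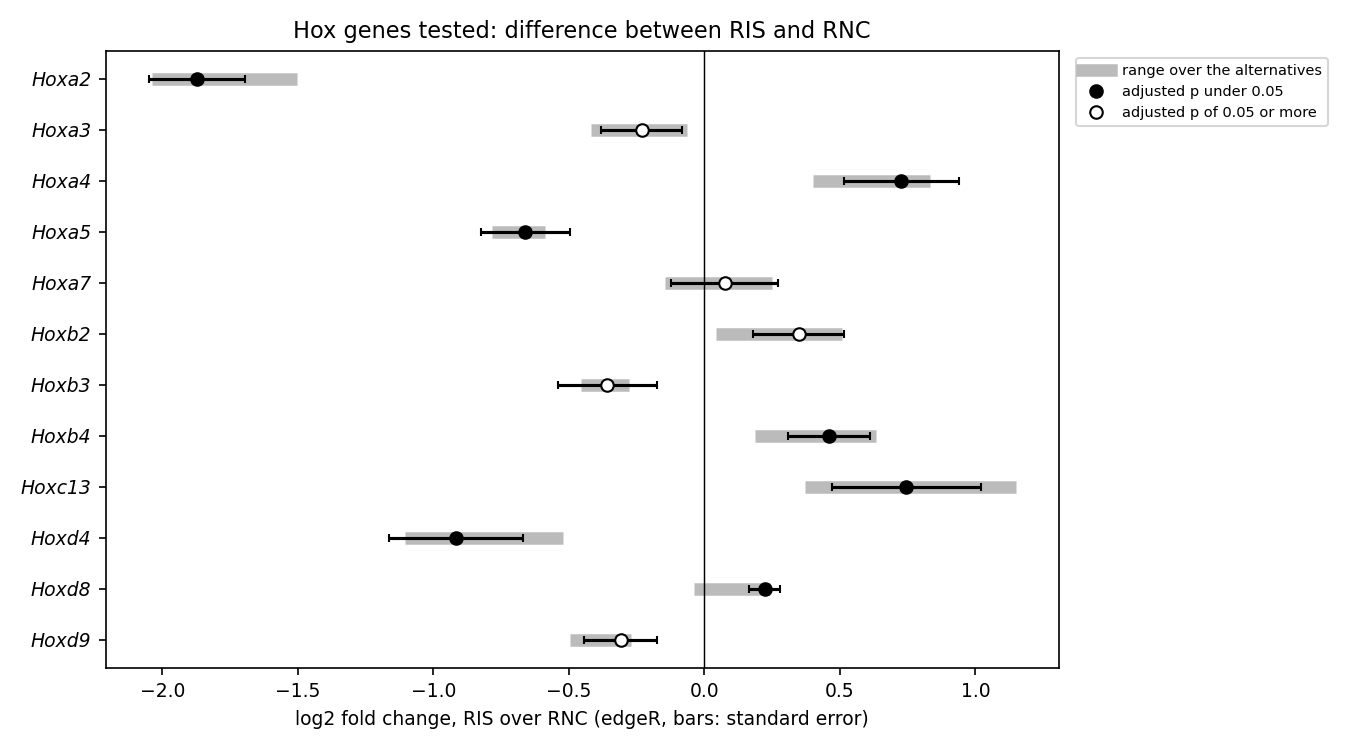
Log2 fold change of tested Hox genes, RIS over RNC, from edgeR, with bars for the standard error, filled points for an adjusted p under 0.05 and grey bands for the range over the alternatives. Hoxa2 lies at -1.87, and the grey band of Hoxd8 crosses 0 while those of Hoxa4, Hoxb4 and Hoxc13 stay above it.

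In the Hoxd cluster, Hoxd4 was lower in RIS and Hoxd8 was slightly higher, the latter by a positive value that under TPM was positive only relative to the median of all genes. Hoxd4, a gene of the hindbrain and neck at chr2:74721978-74729160, had 53 and 68 counts in RNC and 29 and 31 in RIS (1.33 and 1.76 against 0.73 and 0.80 FPKM). Its log2 fold change was -0.92 (SE 0.248, edgeR adjusted p = 0.0074), and without RNC2 it was -0.71 (adjusted p = 0.0939). Hoxd3, which acts in the first neck vertebra, had 48 and 68 counts in RNC and 13 and 20 in RIS (1.06 and 1.55 against 0.29 and 0.45 FPKM). With a mean of 0.838 FPKM over the 4 libraries it was below the limit for testing. A fit with no limit, in which 37.6% of all genes passed and 19.3% were lower, gave -1.72 (SE 0.335, edgeR adjusted p = 0.0121). In that fit the call was lost without RNC1 (-1.96, adjusted p = 0.114) and without RNC2 (-1.42, adjusted p = 0.167). Hoxd3 and Hoxd4 share 388 exon bases, and 53.1% of the exon bases of Hoxd3 and 39.1% of those of Hoxd4 lie in the gene Gm28230 on the same strand, so their counts are not independent of each other.

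Hoxd8, at chr2:74704615-74707933, held more counts than any other Hox gene. It had 597 and 599 counts in RNC and 659 and 648 in RIS (21.74 and 22.33 against 23.80 and 23.56 FPKM). The control libraries differed by 2 counts, and the shift to RIS was 1.17 times, a log2 fold change of 0.22 (SE 0.0562, edgeR adjusted p = 0.00504). The call held in 10 of 15 alternatives. It was lost with library size alone (0.13, adjusted p = 0.0666), with limma on log2(FPKM + 1) (0.10, adjusted p = 0.122) and log2(FPKM + 0.1) (0.10, adjusted p = 0.122) and, at the same size of change, with DESeq2 (0.22, adjusted p = 0.0848), while RLE, the scaling of DESeq2, kept it within edgeR (adjusted p = 0.00477). With TPM the value was -0.04 (adjusted p = 0.589) where the median of all genes was -0.224, so that Hoxd8 stood 0.185 above that median. Hoxd9, which acts in the limb and lower spine, had 179 and 170 counts in RNC and 129 and 135 in RIS. The groups did not overlap, and at a log2 fold change of -0.31 it missed the threshold (edgeR adjusted p = 0.0655), which it passed with a gene length offset, with library size alone and with limma.

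In the Hoxb cluster, Hoxb4, used to expand blood stem cells, was the gene that passed. It had 146 and 141 counts in RNC and 209 and 161 in RIS (3.67 and 3.65 against 5.28 and 4.13 FPKM). Its log2 fold change of 0.46 (SE 0.153, edgeR adjusted p = 0.0213) rested largely on RIS1. Without RIS1 it was 0.27 (adjusted p = 0.140), and the call was also lost without RNC1 (0.47, adjusted p = 0.0722), without RNC2 (0.45, adjusted p = 0.0772) and with DESeq2 (adjusted p = 0.0621). It was lost as well with no limit on FPKM (0.0643), library size only (0.0536) and the 3 limma fits (0.057 to 0.197), and held in 5 of 14 alternatives. Hoxb2, which acts in the hindbrain origin of the facial nerve, had 89 and 107 counts in RNC and 120 and 114 in RIS, at 0.35 (adjusted p = 0.0914). Hoxb3, its neighbour, had 91 and 91 counts in RNC and 63 and 70 in RIS, at -0.36 (adjusted p = 0.106), and 52.9% of its exon bases lie opposite the antisense gene Hoxb3os. For both genes the RNC and RIS libraries did not overlap after scaling, as was so for 11 of the 13 tested genes (5 with RIS above, 6 with RIS below), against 82.9% of all genes.

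In the Hoxc cluster only Hoxc13, a regulator of hair keratins, reached the limit for testing. It had 28 and 45 counts in RNC and 52 and 63 in RIS (0.74 and 1.23 against 1.39 and 1.71 FPKM). The log2 fold change was 0.75 (SE 0.274, edgeR adjusted p = 0.0333). It was 0.43 without RNC1 (adjusted p = 0.281) and 0.60 without RIS2 (adjusted p = 0.104), and the call was lost with DESeq2 (adjusted p = 0.106), no limit on FPKM (0.110), library size only (0.0588) and the 3 limma fits (0.0735 to 0.135). It held in 6 of 14 alternatives.

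Of paralog group 4, Hoxa4 and Hoxb4 were higher in RIS and Hoxd4 lower, and Hoxc4 had 1 count in RIS2 and 0 elsewhere. Of group 2, Hoxa2 was lower, and Hoxb2 had a positive log2 fold change that did not pass the test. Of group 3, Hoxa3, Hoxb3 and Hoxd3 all had negative log2 fold changes, of which that of Hoxd3 passed in the fit with no limit, and those of Hoxa3 and Hoxb3 passed with TPM. Ratios of counts within a library need no scaling between libraries, and 3 pairs chosen after their values were seen show the size of these shifts. Hoxa4 over Hoxa2 was 0.278 and 0.240 in RNC and 1.31 and 1.90 in RIS, so that Hoxa4 had fewer counts than Hoxa2 in both controls and more in both risperidone libraries. Hoxb4 over Hoxd4 was 2.75 and 2.07 in RNC and 7.21 and 5.19 in RIS. Hoxd8 over Hoxd9 was 3.34 and 3.52 in RNC and 5.11 and 4.8 in RIS. The groups did not overlap in any of these 3 ratios.

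No Hox gene rose in RIS2 alone by the rule of at least 2 times the CPM of the highest other library and at least 10 counts, which 404 genes or 2.52% of the table met. Below that count the picture was less even. Of the 28 genes, 8 were at 0 counts in RNC1, 8 in RNC2 and 8 in RIS1, but 1 in RIS2. Hoxa9, Hoxa10, Hoxb7, Hoxc4, Hoxc8 and Hoxc10 (6 genes) had counts in RIS2 and 0 in the other 3 libraries, against 5.2% of all genes. That share is over genes at all levels, whereas 15 of the 28 Hox genes were not expressed in RNC. Over all genes, too, counts in 1 library alone were most frequent in RIS2, at 834 genes against 275 to 318 in the others. Hoxd1 had 1 count in RIS1 and 0 elsewhere, a pattern of 1.95% of all genes, and 0 Hox genes had counts in RNC1 alone or RNC2 alone.

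The largest of these were Hoxa9 with 8 counts in RIS2 (exact Poisson 95% interval 3.45 to 15.8) and Hoxa10 with 4 (1.09 to 10.2), and the other 4 had 1 count each. Both are posterior genes of the lower trunk. Hoxb9 went from 0, 0 and 1 counts to 5 in RIS2 (1.62 to 11.7), and Hoxc6 from 1, 3 and 0 to 7 (2.81 to 14.4). With the limit lowered to 4 counts, chosen after the data were seen, Hoxa9, Hoxa10, Hoxb9 and Hoxc6 met the 2-fold rule. They were 4 of 28 against 4.59% of all genes, a share that is again over genes at all levels. By the same rule Hoxd10, with 8, 1, 3 and 3 counts, stood out in RNC1 and Hoxb8, with 2, 4, 0 and 2, in RNC2, and 0 Hox genes did in RIS1. Summed over all 15 Hox genes that did not reach 1 FPKM in both RNC libraries, Hoxc13 included, the libraries RNC1, RNC2, RIS1 and RIS2 held 55, 63, 63 and 110 counts, and over the 6 posterior ones among them 36, 46, 56 and 84. The 5 genes of paralog groups 9 and 10 other than Hoxd9, a subset chosen after the values were seen, held 8, 1, 4 and 21 counts. These intervals cover counting error only, and the highest level of these genes in RIS2 was the 0.16 FPKM of Hoxa9.

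RIS2 also stood apart outside the Hox genes. It had counts on 14657 genes, against 13810 to 13962 in the others. The summed level of the 30 kidney markers was 8.98, 7.30 and 5.36 CPM in RNC1, RNC2 and RIS1 and 333 CPM in RIS2, with 8, 10, 13 and 0 of them at 0 counts. The summed level of 12 markers of macrophages, endothelium and epithelium was 3.97, 5.35, 8.24 and 13.8 CPM. Most of it was the macrophage gene Cd68, with 48, 62, 115 and 120 counts, whereas the epithelial gene Cdh1 had 1, 0, 1 and 27. The part of these transcripts in the low Hox counts of RIS2 was not tested. Without RIS2, Hoxa2, Hoxa4, Hoxa5, Hoxb4, Hoxd4 and Hoxd8 still passed the test.

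**Figure D4:**
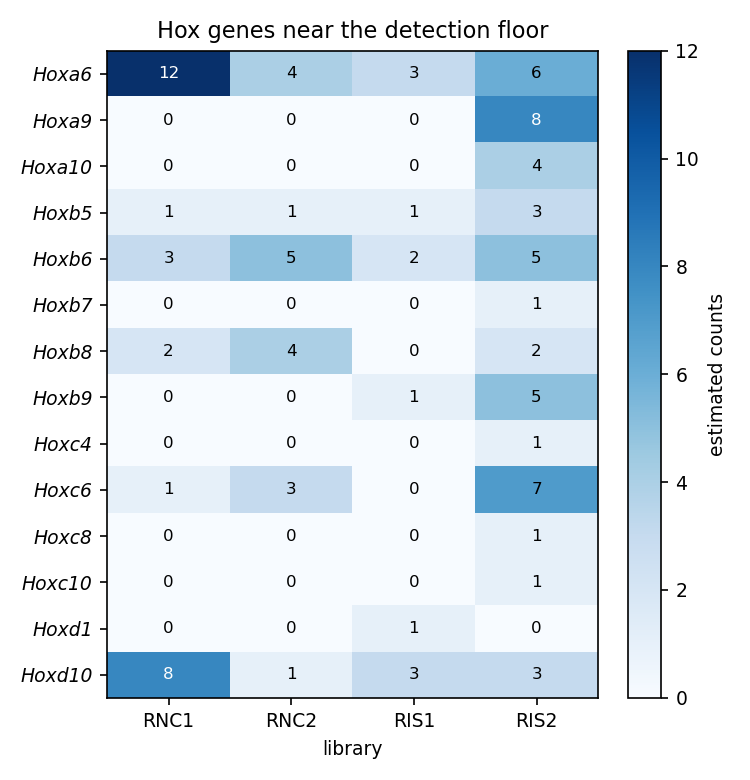
Estimated counts in each library for the 14 Hox genes under both limits, with colour and printed numbers giving the count. The column of RIS2 has 1 gene at 0, whereas each other column has 8.

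Of the 11 genes of the TALE family of cofactors, 10 were tested, 5 were higher in RIS and 3 lower, against 32.1% and 32.2% of all genes, with a median log2 fold change of 0.12. Pbx2, whose protein binds DNA beside Hox proteins, went from 30.4 ± 2.23 FPKM to 39.3 ± 0.898, which is 0.46 on the log2 scale (SE 0.0614, edgeR adjusted p = 6.29e-05). Its relative Pbx3 was higher at 0.50 (adjusted p = 0.00041). Meis1, another DNA-binding partner of Hox proteins, went from 18.8 ± 0.304 FPKM to 12 ± 0.0919, which is -0.51 on the log2 scale (adjusted p = 3.18e-05). Pknox1, a relative of the MEIS genes, was lower at -0.33 (adjusted p = 0.00159). Meis2 had the highest level, 87.6 ± 3.35 FPKM in RNC and 82.3 ± 2.26 in RIS, and did not pass the test (0.01, adjusted p = 0.821).

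Of 14 genes with a row that make, bind or clear retinoic acid, an inducer of anterior Hox genes, 8 were tested. Of these 4 were higher and 2 lower, against 32.1% and 32.2% of all genes, with a median log2 fold change of 0.30, and with TPM 4 were higher and 4 lower (all genes: 15.0% and 51.7%). Aldh1a1, which makes retinoic acid from retinaldehyde, went from 10.4 ± 0.955 FPKM to 28.6 ± 1.15, which is 1.56 on the log2 scale (SE 0.0703, edgeR adjusted p = 4.12e-08). Dhrs3, which turns retinaldehyde back into retinol, was higher at 1.21 (adjusted p = 3.09e-07), and Rdh10, which makes retinaldehyde, was lower at -0.91 (adjusted p = 0.00016). Of the receptors that pair with the retinoic acid receptors, Rxrb was higher at 0.58 (adjusted p = 1.96e-05) and Rxra, the highest in level of this list, lower at -0.50 (adjusted p = 4.45e-06).

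**Figure D5:**
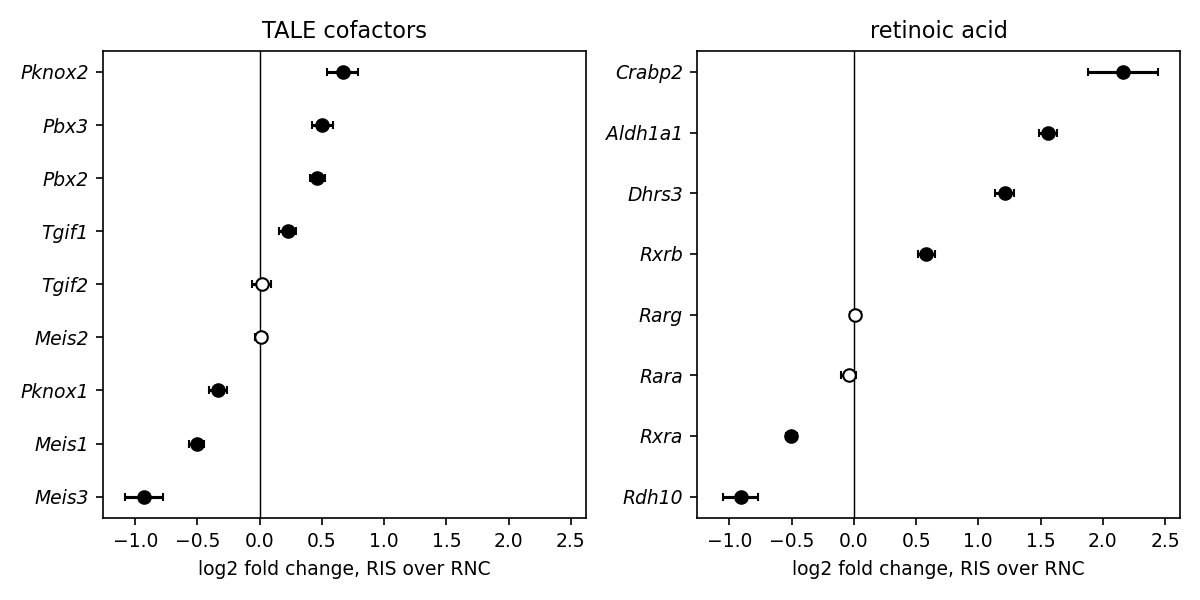
Log2 fold change, RIS over RNC, with standard error bars for tested TALE cofactors (left) and retinoic acid genes (right), filled where the edgeR adjusted p was under 0.05. Pbx2 and Pbx3 lie to the right of 0, Meis1 and Pknox1 to the left, and Meis2 at 0.01.

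Of 28 tested Polycomb genes, which keep Hox genes silent, 10 were higher and 7 lower, against 32.1% and 32.2% of all genes, with a median log2 fold change of 0.03, and with TPM 5 were higher and 14 lower (all genes: 15.0% and 51.7%). With library size only, 12 were lower. Cbx6, a Polycomb chromodomain gene, was lower at -0.81 (edgeR adjusted p = 1.49e-07), as were Mtf2 at -0.76 (adjusted p = 1.82e-06) and Pcgf3 at -0.58 (adjusted p = 1.12e-05). Pcgf6 at 0.70 (adjusted p = 9.34e-06) and Pcgf1 at 0.68 (adjusted p = 0.00252) were higher. Rbbp4, highest in level at 131 ± 9.13 FPKM in RNC, was at 0.02 (adjusted p = 0.801).

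Of 21 tested trithorax and other activating genes, 5 were higher and 8 lower, against 32.1% and 32.2% of all genes, with a median of -0.11. The 5 fell to 2 without RNC1, without RNC2, with no limit on FPKM, with DESeq2, with library size only and with limma on FPKM, to 3 without RIS1 and with a limit of 5 FPKM, and to 1, with 15 lower, under TPM (all genes: 15.0% and 51.7%). Mllt3, a subunit of the super elongation complex, was higher at 1.21 (edgeR adjusted p = 7.95e-08), and its relative Mllt1 lower at -0.70 (adjusted p = 3.23e-06). The histone methyltransferase gene Kmt2d at -0.50 (adjusted p = 5e-06), the demethylase gene Kdm6a at -0.36 (adjusted p = 0.00136) and Ctcf, whose protein marks domain boundaries inside Hox clusters, at -0.39 (adjusted p = 0.000246) were lower. The cohesin gene Rad21, highest in level at 62.2 ± 0.283 FPKM in RNC, was at 0.09 (adjusted p = 0.126) and at 0.14 without RIS2. With TPM it passed as lower at -0.15, where the median of all genes was -0.224.

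Of 20 tested genes that lie beside the Hox clusters, 6 were higher and 9 lower, against 32.1% and 32.2% of all genes, with a median of -0.06. With TPM 1 was higher and 13 were lower (all genes: 15.0% and 51.7%), and with a limit of 5 FPKM 3 were higher. Nfe2l2, the oxidative stress regulator near Hoxd, was lower at -0.96 (edgeR adjusted p = 1.2e-07), as were Skap2 near Hoxa at -0.57 (adjusted p = 9.64e-06) and Snx11 near Hoxb at -0.38 (adjusted p = 0.0252). The Snx11 call was lost without RNC1 (-0.41, adjusted p = 0.0714), RNC2 (-0.35, adjusted p = 0.134) or RIS2 (-0.25, adjusted p = 0.106), with no limit on FPKM and with DESeq2. Cbx3 near Hoxa at 0.33 (adjusted p = 0.00016) and Copz1 near Hoxc, highest in level, at 0.54 (adjusted p = 7.71e-06) were higher. None of the 18 noncoding genes of the clusters was analysed here.

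Other transcription factors that record body position were tested for 17 genes, of which 4 were higher and 6 lower, against 32.1% and 32.2% of all genes, with a median of -0.16. With TPM 3 were higher and 10 lower (all genes: 15.0% and 51.7%). Prrx1, a mesenchymal and limb factor, went from 23.9 ± 0.106 FPKM to 9.26 ± 1.27, which is -1.27 on the log2 scale (SE 0.0788, edgeR adjusted p = 2.73e-07). Foxf2 was lower at -0.75 (adjusted p = 0.000193). Osr1 at 0.79 (adjusted p = 2.17e-05), En1 at 0.61 (adjusted p = 1.31e-05) and Twist2, highest in level, at 0.38 (adjusted p = 0.000411) were higher. The hindlimb genes Tbx4 and Pitx1 had 0 or 1 count in each library.

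Of 11 tested genes often named as Hox targets, 7 were higher and 2 lower, against 32.1% and 32.2% of all genes, with a median of 0.45. With a limit of 5 FPKM, which tests fewer of them, 3 were higher. Cdkn1a, the cell cycle inhibitor gene, was lower at -1.07 (edgeR adjusted p = 1.74e-07) and the adhesion gene Ncam1 at -0.53 (adjusted p = 7.55e-06). Vegfa at 0.50 (adjusted p = 2.48e-05), Spp1 at 0.45 (adjusted p = 0.00203) and Cdkn2a, highest in level, at 0.24 (adjusted p = 0.00318) were higher. Without RNC1, Cdkn2a was at 0.19 (adjusted p = 0.101). The lists were written with earlier results of these data known. Those around the Hox genes held 10, 8, 28, 21, 20, 17 and 11 tested genes, in the order above. Over all of these, 41 genes were higher and 37 lower, against 32.1% and 32.2% of all genes (64.3% in either direction).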

How the data were processed

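Transcripts of 3T3-L1 cells were sequenced as 2 RNC and 2 RIS libraries, grouped by their titles. The authors sequenced on an MGISEQ-2000, removed adaptor, poly-N and low-quality reads, and deposited 1 table of 16051 genes, each with a count in at least 1 library. Its FPKM and TPM values were computed by the authors from mapped reads. Its estimated counts, also as deposited by the authors, were not normalized and were exactly whole for 91.2% to 91.7% of values. The submitters' notes name GRCm38.p6, Bowtie2, RSEM and DESeq2, whose versions and roles are not given in the sources used here. The deposited group averages were not used. FPKM, being per length, was used for levels between genes, and counts for tests.

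After rounding, the counts were fitted with edgeR 4.0.16 under R 4.3.3 (TMM, quasi-likelihood F-test, two-sided) for the 10243 genes that averaged 1 FPKM or more across libraries. Adjustment was by Benjamini-Hochberg, with 0.05 as the threshold. The SE of a log2 fold change was its size divided by the root of F. TMM factors were 1.03 and 1.03 for RNC and 0.963 and 0.974 for RIS, and the biological coefficient of variation was 0.0468. Alternatives were no limit on FPKM, a limit of 5 FPKM, a replicate term, each library left out, DESeq2 1.42.0, RLE factors, library size only, a gene length offset, and limma 3.58.1 on log2(FPKM + 1), log2(FPKM + 0.1) and log2(TPM + 1). The main edgeR fit, DESeq2, the length offset, the replicate term and the fit without RIS2 were run on simulated counts. Limma was run on the CPM of those counts, not on FPKM or TPM. The other alternatives were not run on them. Exon overlaps came from GENCODE M21, and promoters and coordinates from RefSeq, which had a promoter for 16 of the 28 genes. Tables were handled in Python 3.11.15 with pandas 2.3.3, and figures drawn with matplotlib 3.10.9.

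The Hox genes and the lists around them were chosen with earlier results of these data known. A Hox gene was named with its values if it had at least 1 FPKM in both RNC libraries, passed the test or met the RIS2 rule. From each list, up to 5 genes that passed and averaged 5 FPKM or more were named, by the largest absolute change, and the gene with the highest mean. The genes with fewer counts that are named for RIS2, Hoxa6, Hoxc4, Hoxd1, Hoxd10, Tbx4 and Pitx1 were chosen after their values were seen. Some genes that met these rules are not reported here.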

Additional observations from a re-analysis of the deposited data

How the results depend on the processing

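The Hoxa2 and Hoxa5 calls held under each of the 14 alternatives that tested them. Of 4 Hox genes higher in RIS, 2 were left with no limit on FPKM, 1 with a limit of 5 FPKM (which tests only Hoxb2 and Hoxd8), 0 with DESeq2 (which called 3 lower), and 1 each with library size only and with limma on log2(FPKM + 1), log2(FPKM + 0.1) and log2(TPM + 1). Of 3 lower, 0 were left with the limit of 5 FPKM, and 5 were called with library size only and 7 with TPM. Over the fits without 1 library, 2 to 3 were higher and 2 to 4 lower. Over all genes those fits gave 2666 to 3310 higher and 2725 to 3350 lower, and TPM gave 1536 and 5292 in place of 3287 and 3303. In the lists around the Hox genes the fits without 1 library gave 34 to 43 higher and 30 to 41 lower, and TPM gave 23 and 62 in place of 41 and 37. The cause of the other differences was not tested.

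A replicate term changed no Hox call, with 4 higher and 3 lower under the replicate block, and 3292 and 3321 over all genes. The deviations of same-numbered libraries correlated at -0.105, a single value in this design, and the labels give no shared origin, so the libraries were treated as sharing only a number. The crossed pairing, added after the data were seen, gave 4 and 3 Hox genes and 3474 and 3519 of all genes.

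At 5 FPKM in both RNC libraries 3 Hox genes counted as expressed. The RIS2 rule met by 0 genes was met by 0 at 1.5 times, 3 times or 30 counts, by 4 with a minimum of 4 counts, and by 6 when counts in RIS2 alone were asked for, the last 2 chosen after the data were seen.

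Log2 fold changes of 6 named genes changed sign. Hoxa7 (0.07) was at -0.019 with library size only, -0.023 and -0.032 with FPKM and a pseudocount of 1 and 0.1, -0.15 with TPM, and between -0.12 and 0.25 without 1 library. Hoxd8 was at -0.039 with TPM. Meis2 was at -0.011 with the limit of 5 FPKM, -0.080 with library size only, -0.090 and -0.091 with FPKM, -0.23 with TPM, and between -0.025 and 0.053 without 1 library. Rbbp4 was at -0.0084 with the limit of 5 FPKM, -0.077 with library size only, -0.011 with the length offset, -0.089 and -0.089 with FPKM, -0.23 with TPM, and between -0.049 and 0.084 without 1 library. Rad21 was at -0.0026 with library size only, -0.0038 and -0.0038 with FPKM, and -0.15 with TPM. Cdkn2a was at -0.0028 with TPM. Library size, FPKM and TPM moved the median of all genes to -0.093, -0.084 to -0.092 and -0.224. Relative to that median Hoxa7 stayed positive under these scalings, at 0.06 to 0.078, as did Hoxd8 at 0.185, Rad21 at 0.078 to 0.091 and Cdkn2a at 0.221. Meis2 lay between -0.009 and 0.013 and Rbbp4 between -0.008 and 0.016. Among the other named genes, a call was lost 12 times, for Snx11 (5 alternatives), Cdkn2a (4), and Cbx3, Twist2 and Spp1 (TPM only), and Rad21 passed as higher without RIS2 and with the length offset. Under TPM, Rad21, Meis2 and Rbbp4 passed as lower (limma adjusted p = 0.0265, 0.00581 and 0.00701). The Hox genes tested held between 28 and 659 counts in a library.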
